A study of Homo sapiens with 12 samples.

Results

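Metallothioneins are small cysteine-rich proteins that bind zinc and copper, and the genes described here are those of the metallothionein family together with 3 genes that sense or move zinc. They were chosen by symbol: MT1E, MT1F, MT1G, MT1H, MT1M, MT1X, MT2A, SLC30A1, MTF1 and SLC39A10, each read from the probe set with the highest mean among those annotated to that symbol alone. All 10 were found, among 18417 genes tested. RNA came from SZ95 sebocytes, a line of immortalised human sebaceous gland cells, and was hybridised to 12 arrays in 4 groups of 3. The groups were OLR1 siRNA with UV-PAPC, OLR1 siRNA untreated, scramble siRNA with UV-PAPC and scramble siRNA untreated. UV-PAPC is a phosphatidylcholine carrying arachidonic acid, oxidised by ultraviolet light, and was given at 25 µg/ml 24 h after lipofection with Lipofectamine. OLR1 encodes the scavenger receptor LOX-1. All 4 groups were thus transfected, and no group received vehicle, unoxidised PAPC or no siRNA. Whether the 3 arrays of a group stand for separate cultures is not stated, so each p-value reflects only how far the samples at hand scatter, and that scatter may be technical. The sources used here do not give the length of the exposure.

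As background, free zinc in a cell is buffered by metallothioneins, which take up the metal on their cysteine thiols and release it when those thiols are oxidised. MTF1 is a zinc-finger transcription factor that binds metal response elements when cellular zinc is high and raises transcription of the metallothionein genes and of SLC30A1. SLC30A1 (ZnT1) exports zinc across the plasma membrane. SLC39A10 (ZIP10) imports zinc, and in mouse cells its gene is repressed through MTF1. Metallothionein genes also respond to glucocorticoids, oxidants and other stresses. In the RefSeq annotation of GRCh38.p14 the human MT1 and MT2A genes lie in one cluster on chromosome 16, in the order MT2A, MT1E, MT1M, MT1F, MT1G, MT1H and MT1X for the 7 in this set. Their coding sequences are closely similar, so probe sets of one gene may carry signal of another and the values of single members are uncertain.

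The 250 bases upstream of the RefSeq start (GRCh38.p14) are shown for 4 genes, because they hold matches to the core of the metal response element, which MTF1 binds. The core was searched as TGCACNC and TGCGCNC on both strands, and capitals mark the matches. A match on the opposite strand therefore reads GNGTGCA or GNGCGCA as printed. The windows were chr16:56608334-56608583, plus strand, for MT2A, chr16:56669564-56669813, plus strand, for MT1H, chr16:56682220-56682469, plus strand, for MT1X and chr1:211579162-211579411, minus strand, for SLC30A1, each written 5′ to 3′ on the strand of its gene.
MT2A: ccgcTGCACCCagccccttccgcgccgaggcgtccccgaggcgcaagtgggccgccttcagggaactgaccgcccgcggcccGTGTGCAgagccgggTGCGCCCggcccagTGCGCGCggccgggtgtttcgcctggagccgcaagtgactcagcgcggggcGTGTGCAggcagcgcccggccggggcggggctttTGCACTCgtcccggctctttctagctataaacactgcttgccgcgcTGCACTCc
MT1H: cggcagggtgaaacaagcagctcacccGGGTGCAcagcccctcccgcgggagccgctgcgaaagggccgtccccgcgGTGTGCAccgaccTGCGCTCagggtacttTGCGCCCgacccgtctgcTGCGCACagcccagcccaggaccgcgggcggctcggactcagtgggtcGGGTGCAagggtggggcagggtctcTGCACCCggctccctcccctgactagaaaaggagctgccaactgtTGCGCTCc
MT1X: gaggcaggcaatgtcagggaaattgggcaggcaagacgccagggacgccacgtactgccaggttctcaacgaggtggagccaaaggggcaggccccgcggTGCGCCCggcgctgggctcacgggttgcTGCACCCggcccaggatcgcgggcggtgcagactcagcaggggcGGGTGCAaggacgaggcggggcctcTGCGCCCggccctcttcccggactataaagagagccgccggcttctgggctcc
SLC30A1: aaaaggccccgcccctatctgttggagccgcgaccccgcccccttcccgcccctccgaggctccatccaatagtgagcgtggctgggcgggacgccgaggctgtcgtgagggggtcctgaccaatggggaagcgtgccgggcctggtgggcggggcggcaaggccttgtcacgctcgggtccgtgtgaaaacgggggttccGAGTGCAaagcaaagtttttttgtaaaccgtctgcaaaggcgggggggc

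MT2A held 7 matches, MT1H 8 and MT1X 4, none overlapping another, and SLC30A1 held 1. Of 35116 RefSeq windows of the same length, 24.8% held at least 1 match, 0.37% at least 4, 0.0313% at least 7 and 0.0171% at least 8. MTF1 and both SLC39A10 starts held 0 matches, which says only that these letters are not in those windows. A window was matched for 6 of the 10 genes. A match is a description of the sequence and not a site of binding.

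**Figure D1:**
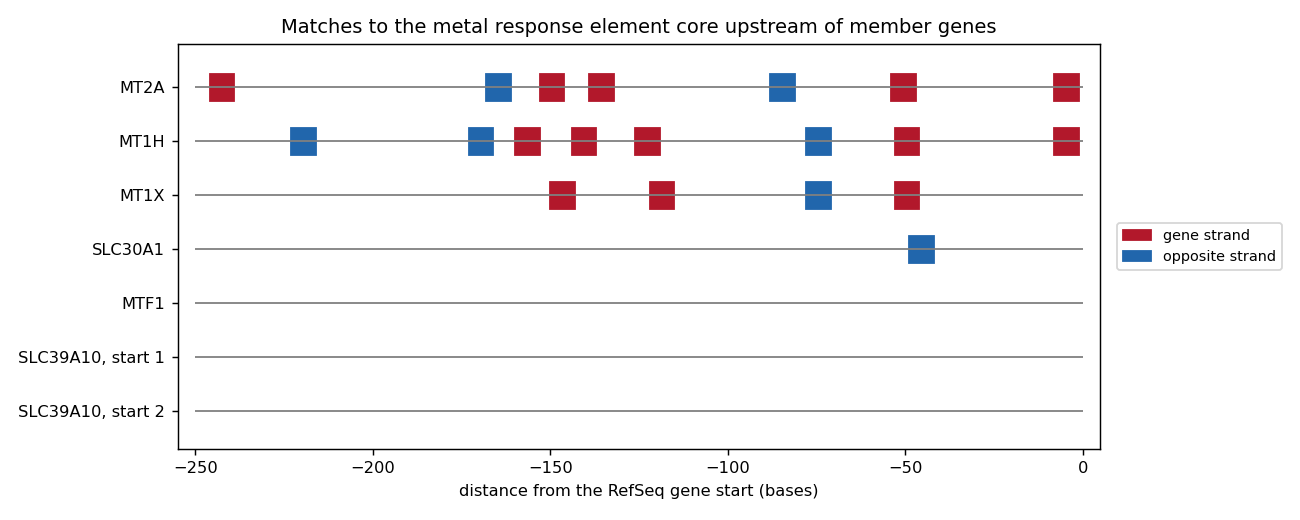
Matches to the metal response element core in the 250 bases upstream of each RefSeq start. The horizontal axis is the distance from the start in bases; red boxes lie on the strand of the gene and blue boxes on the opposite strand. MT2A, MT1H and MT1X hold 7, 8 and 4 matches, SLC30A1 holds 1, and the other 3 windows hold 0.

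The deposited values were log2 signals with array medians between 5.73 and 5.83. The target of the siRNA checked the labels: OLR1 read 4.33 to 4.47 in OLR1 siRNA cells with UV-PAPC and 5.49 to 6.19 in scramble cells with UV-PAPC, and 4.38 to 4.66 in untreated OLR1 siRNA cells against 5.35 to 6.18 in untreated scramble cells. Of 20 measured sebocyte markers 12 lay above the median gene signal of 6.35, KRT7 at 11.2 and PPARG at 8.10 among them, while the wax ester synthase gene AWAT2 (4.03) and the melanocortin receptor gene MC5R (4.20) lay below it. Of 10 measured markers of basal and simple epithelium, 8 lay above that median, KRT8 at 12.5 and EPCAM at 11.7 among them. KRT14 (6.25) and KRT15 (5.27) lay below. Above the median lay 1 of 10 fibroblast, 2 of 7 melanocyte, 1 of 7 leukocyte and 1 of 6 endothelial markers. The lineage genes MLANA (3.43), PTPRC (3.26), PECAM1 (4.03), DCN (3.09) and VIM (3.94) were among the low ones. Those above the median were COL1A1 (7.15), MITF (8.41), SOX10 (6.42), CD68 (9.62) and CDH5 (8.19). A median splits all genes evenly, so these counts do not tell sebocytes from other epithelial cells. In RNA from whole cultures, fewer cells of a type and less RNA per cell cannot be told apart.

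MT2A gave signals of 12.6 to 13.0, which is 1.09 to 1.46 below the highest signal of its array, so that a part of its range may be compressed. MT1H (5.54 to 5.88) and MT1M (5.88 to 6.40) lay close to the array medians, and no detection call was available for them. The other metallothioneins spanned 8.33 to 10.29. Signals of different probe sets are not comparable as amounts of RNA, so only differences of a probe set between groups are compared here.

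In scramble siRNA cells UV-PAPC lowered 4 of the 7 metallothioneins and the zinc exporter gene SLC30A1. These were MT1E, MT1G, MT1X and MT2A, and their changes were small, between -0.39 and -0.22 on the log2 scale. MT1F, MT1H and MT1M had negative differences that did not pass the test, and neither did MTF1 or the importer gene SLC39A10. In all, 5 of the 10 genes fell and 0 rose (limma, Benjamini-Hochberg adjustment over all genes, threshold 0.05). Over all genes, 4.64% fell and 2.67% rose.

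MT1X read 8.52, 8.33 and 8.69 with UV-PAPC, against 8.99, 8.97 and 8.74 untreated. Every treated array lay below every untreated one, although the gap between the groups was narrow. The log2 difference was -0.39 (SE 0.10, adjusted p = 0.0299), a 1.31-fold lower signal. MT1E read 9.17, 9.21 and 9.14 with UV-PAPC, against 9.53, 9.68 and 9.30 untreated. Its groups did not overlap, and the difference was -0.33 (SE 0.09, adjusted p = 0.0278). MT2A, usually the most abundant human metallothionein, read 12.75, 12.69 and 12.61 with UV-PAPC, against 13.05, 12.91 and 12.84 untreated. Again no treated array reached an untreated one, with a difference of -0.25 (SE 0.07, adjusted p = 0.0339). MT1G averaged 9.99 ± 0.02 with UV-PAPC (SD, n = 3), its arrays lying within 0.03 of each other, against 10.18, 10.29 and 10.15 untreated. The groups did not overlap, and the difference was -0.22 (SE 0.06, adjusted p = 0.0426). SLC30A1 read 7.84, 7.90 and 7.70 with UV-PAPC, against 8.25, 8.21 and 7.97 untreated. Its difference was -0.33 (SE 0.09, adjusted p = 0.0334), and its groups did not overlap either.

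Of the genes with no call, MT1F averaged 8.63 ± 0.09 with UV-PAPC and 8.74 ± 0.09 untreated (SD, n = 3 each), and MT1M averaged 6.06 ± 0.16 with UV-PAPC and 6.20 ± 0.23 untreated. MT1H differed by -0.03. MTF1 averaged 9.40 ± 0.17 with UV-PAPC and 9.36 ± 0.04 untreated, and SLC39A10 averaged 8.74 ± 0.27 with UV-PAPC and 8.84 ± 0.07 untreated. The wide SD of both treated groups came from the third array, at 9.21 for MTF1 and 8.43 for SLC39A10. Without it the differences were 0.13 for MTF1 and 0.05 for SLC39A10, neither past the threshold.

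The median difference of the 7 metallothioneins was -0.22 and that of all 10 genes -0.17, against 0.00 over all genes. The 5 genes that fell were also the 5 whose treated arrays all lay below the untreated ones, which held for 14.0% of all genes. These calls stood close to the threshold. Without untreated scramble array 1 or 2, 0 of the 10 passed, and without any one of the scramble arrays with UV-PAPC 1 did: MT2A without the first, SLC30A1 without the second and MT1X without the third. Adjustment over all 33297 table entries also left 0. Array means of several marker lists also stood apart in scramble cells. The epithelial list had 10.25 to 10.34 with UV-PAPC against 10.37 to 10.45 untreated, and the endothelial list 4.65 to 4.67 with UV-PAPC against 4.68 to 4.75 untreated. The melanocyte list had 4.99 to 5.02 with UV-PAPC against 4.87 to 4.93 untreated, and the fibroblast list 4.78 to 4.82 with UV-PAPC against 4.68 to 4.77 untreated. Their part in the result was not tested.

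In OLR1 siRNA cells the response to UV-PAPC had the same sign for all 7 metallothioneins, but none of the 10 genes passed the test. Over all genes 6.71% passed (3.46% rose and 3.25% fell). At an unadjusted p under 0.05 there were 3 of the 10, namely MT1G, MT2A and SLC39A10, where 18.5% of all genes were. MT1G read 9.90, 9.91 and 9.86 with UV-PAPC, against 10.13, 10.10 and 10.08 untreated. Both groups were tight and apart, and the difference of -0.21 had an adjusted p of 0.0518. MT2A read 12.65, 12.65 and 12.64 with UV-PAPC, against 12.84, 12.84 and 12.82 untreated. The arrays of each group agreed to within 0.03, and the difference was -0.18 (SE 0.07). Its limma p was 0.0174 unadjusted and 0.146 after adjustment over all genes. The spread in limma is estimated from all 4 groups and moderated over genes.

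MT1E averaged 9.62 ± 0.08 with UV-PAPC and 9.80 ± 0.08 untreated in OLR1 siRNA cells (SD, n = 3 each), a difference of -0.18 (adjusted p = 0.277). MT1X averaged 8.95 ± 0.09 with UV-PAPC and 9.12 ± 0.16 untreated (-0.18, adjusted p = 0.391). MT1F, MT1M and MT1H differed by -0.14, -0.14 and -0.10. SLC30A1 averaged 7.75 ± 0.11 with UV-PAPC and 7.82 ± 0.10 untreated, a difference of -0.07 (adjusted p = 0.736). MTF1 and SLC39A10 had positive differences. MTF1 read 9.77, 9.81 and 9.78 with UV-PAPC, against 9.66, 9.65 and 9.57 untreated (0.16, adjusted p = 0.291). SLC39A10 read 8.71, 8.67 and 8.60 with UV-PAPC, against 8.43, 8.41 and 8.39 untreated (0.25, adjusted p = 0.187). For these 2 genes every treated array lay above the untreated ones, and for MT1E, MT1F, MT1G and MT2A every treated array lay below; groups were apart in this way for 10.9% and 12.8% of all genes. In OLR1 siRNA cells the epithelial list had array means of 10.28 to 10.35 with UV-PAPC against 10.37 to 10.42 untreated, and the endothelial list 4.71 to 4.74 with UV-PAPC against 4.76 to 4.83 untreated. Their part in the result was not tested.

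**Figure D2:**
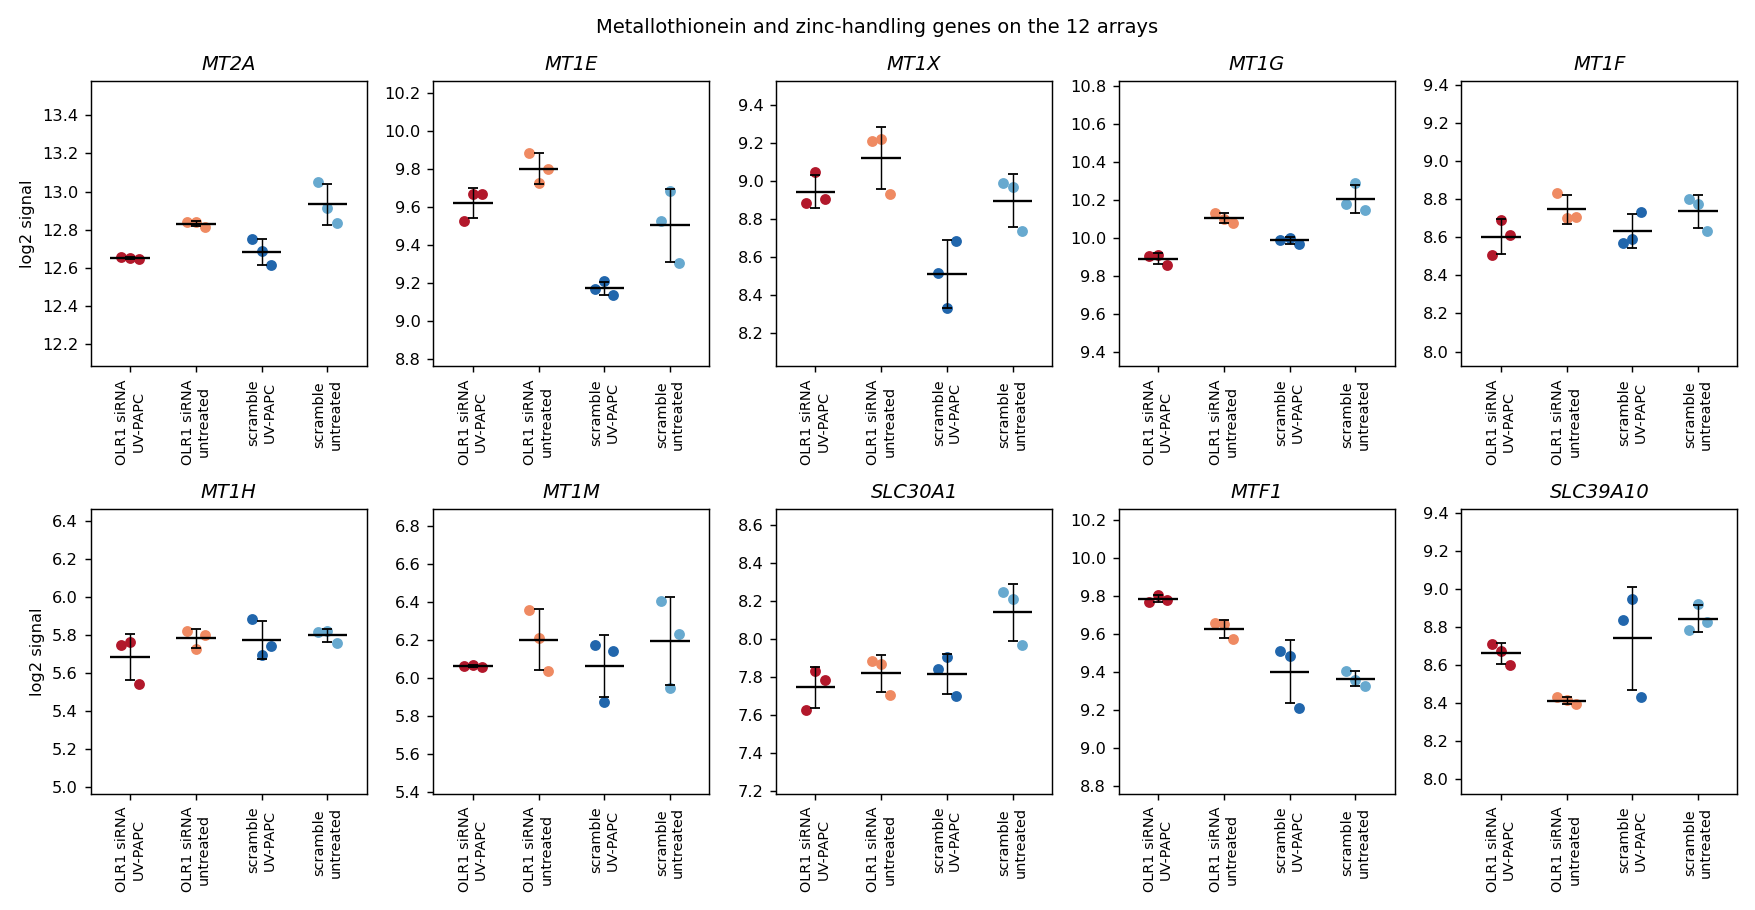
Log2 signal of the 10 genes on each of the 12 arrays, 1 panel per gene with its own vertical axis that does not start at 0. Points are arrays, horizontal bars are group means and whiskers are SD, with n = 3 in each group. The means of MT1E and MT1X stand higher with OLR1 siRNA. All arrays of MT1E, MT1G and MT2A with UV-PAPC lie below the untreated arrays of the same siRNA. The mean of SLC39A10 is lowest in untreated OLR1 siRNA cells.

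The difference between both UV-PAPC responses was tested as an interaction. None of the 10 genes and none of the 18417 passed it, a share of 0%, so the calls under scramble siRNA and their absence under OLR1 siRNA are not shown to differ. At an unadjusted p under 0.05 there was 1 of the 10, SLC39A10, with a difference of responses of 0.35 (95% confidence interval 0.05 to 0.65, adjusted p = 0.904), where 5.45% of all genes were. That value fell to 0.20 without the third scramble array with UV-PAPC, the low array named above. SLC30A1 had 0.25 (95% confidence interval -0.01 to 0.52). The metallothioneins ranged from -0.07 for MT1H to 0.21 for MT1X, with a median of 0.01.

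Since no difference between the responses was found, the UV-PAPC effect was also averaged over both siRNAs, a contrast chosen after the single responses had been seen. MT1G fell by 0.22 (SE 0.04, adjusted p = 0.0028), MT2A by 0.22 (SE 0.05, adjusted p = 0.0056), MT1E by 0.26 (SE 0.06, adjusted p = 0.00898), MT1X by 0.28 (SE 0.07, adjusted p = 0.0144) and SLC30A1 by 0.20 (SE 0.06, adjusted p = 0.0432). These are the same 5 genes as under scramble siRNA, whose arrays enter both. Over all genes 8.03% fell and 5.95% rose in the average. MT1F (-0.12), MT1M (-0.13), MT1H (-0.06), MTF1 (0.10) and SLC39A10 (0.07) did not pass. MT1E, MT1G, MT1X and MT2A passed in all 20 alternative settings tried for this average, and SLC30A1 in 11 of them.

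MT2A was read by 2 further probe sets. In a fit of all table entries the 3 differed by -0.25, -0.26 and -0.23 with UV-PAPC under scramble siRNA, with adjusted p of 0.0593, 0.0751 and 0.112. Under OLR1 siRNA they differed by -0.18, -0.15 and -0.14, none past the threshold. Averaged over siRNAs all 3 fell, with adjusted p of 0.0119, 0.0259 and 0.0385. The probe sets may share sequence and are not replicates.

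**Figure D3:**
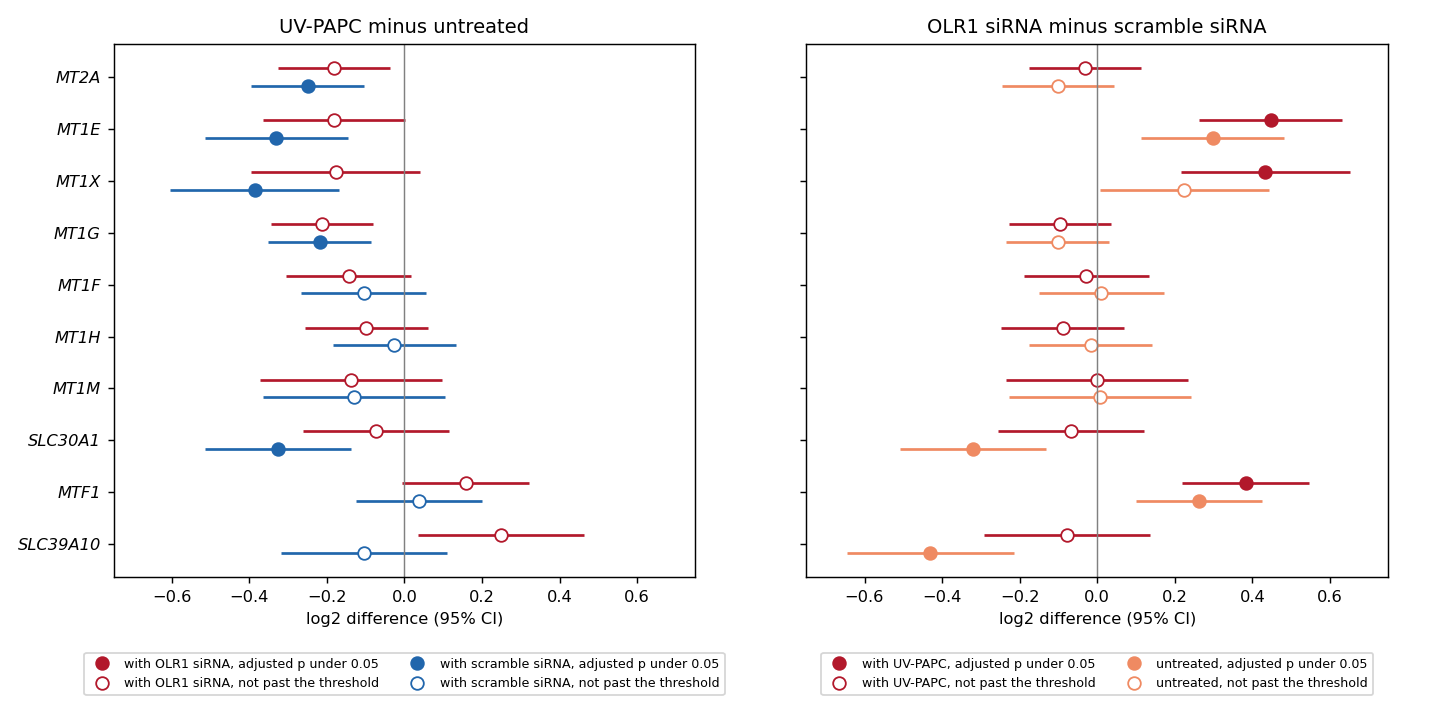
Log2 differences of the 10 genes, with 95% confidence intervals from limma, unadjusted for the number of genes. UV-PAPC minus untreated is given for each siRNA, and OLR1 minus scramble siRNA for each treatment. Filled points passed the adjusted threshold. The points of all 7 metallothioneins lie left of 0 with UV-PAPC, and those of MT1E, MT1X and MTF1 lie right of 0 with OLR1 siRNA.

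OLR1 siRNA moved the genes in different directions. In untreated cells it raised MT1E and MTF1 and lowered both zinc transporter genes, SLC30A1 and SLC39A10. The other 6 metallothioneins did not pass the test. Thus 2 of the 10 genes rose and 2 fell, where 5.29% of all genes rose and 4.42% fell. This comparison shares its untreated scramble arrays with the UV-PAPC response in scramble cells, so high values on those arrays enter both.

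SLC39A10 read 8.43, 8.41 and 8.39 in untreated OLR1 siRNA cells, against 8.78, 8.92 and 8.82 in untreated scramble cells. The groups were far apart relative to their spread, and the difference of -0.43 (SE 0.10, adjusted p = 0.0122), a 1.35-fold lower signal, was the largest in size of any of the 10 genes in untreated cells. SLC30A1 read 7.89, 7.87 and 7.71 with OLR1 siRNA, against 8.25, 8.21 and 7.97 with scramble siRNA, a difference of -0.32 (SE 0.09, adjusted p = 0.0311). MTF1 read 9.66, 9.65 and 9.57 with OLR1 siRNA, against 9.41, 9.36 and 9.33 with scramble siRNA, a difference of 0.26 (SE 0.08, adjusted p = 0.0415). MT1E read 9.89, 9.73 and 9.80 with OLR1 siRNA, against 9.53, 9.68 and 9.30 with scramble siRNA, a difference of 0.30 (SE 0.09, adjusted p = 0.0398). In each of these 4 genes no array of one group reached the other group. MT1G did not overlap either, at 10.08 to 10.13 with OLR1 siRNA against 10.15 to 10.29 with scramble siRNA, with a difference of -0.10 that did not pass. Groups were apart in 28.7% of all genes.

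MT1X differed by 0.22 (adjusted p = 0.203) and MT2A by -0.10 (adjusted p = 0.421) in untreated cells, and MT1F, MT1H and MT1M by 0.01, -0.02 and 0.01. The 4 calls came down to 1 without untreated scramble array 1 or 2, without any one of the untreated OLR1 siRNA arrays, or with all table entries in the adjustment. They came down to 2 without untreated scramble array 3 or the third OLR1 siRNA array with UV-PAPC. In untreated cells the sebocyte list had array means of 6.84 to 6.90 with OLR1 siRNA against 6.92 to 6.95 with scramble siRNA, a difference whose part was not tested. SLC39A10 passed in 20 of 21 alternative settings, and its adjusted p was 0.0578 without untreated scramble array 2.

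With UV-PAPC in both groups, OLR1 siRNA raised MT1E, MT1X and MTF1, and 0 of the 10 genes fell. Over all genes 7.94% rose and 4.56% fell. MT1E read 9.53, 9.67 and 9.67 with OLR1 siRNA, against 9.17, 9.21 and 9.14 with scramble siRNA. The groups were well apart, and the difference of 0.45 (SE 0.09, adjusted p = 0.00358) was a 1.36-fold higher signal. MT1X read 8.88, 9.05 and 8.91 with OLR1 siRNA, against 8.52, 8.33 and 8.69 with scramble siRNA, a difference of 0.43 (SE 0.10, adjusted p = 0.0121). Without the second scramble array with UV-PAPC, the lowest of its group, MT1X had an adjusted p of 0.0503. MTF1 read 9.77, 9.81 and 9.78 with OLR1 siRNA, against 9.51, 9.48 and 9.21 with scramble siRNA, a difference of 0.38 (SE 0.08, adjusted p = 0.00457).

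MT2A and MT1F had close means in the UV-PAPC groups, at 12.65 ± 0.01 with OLR1 siRNA and 12.68 ± 0.07 with scramble siRNA for MT2A (SD, n = 3 each), and 8.60 ± 0.09 with OLR1 siRNA and 8.63 ± 0.09 with scramble siRNA for MT1F. MT1G differed by -0.10 (adjusted p = 0.337), and its OLR1 siRNA arrays all lay below the scramble arrays. SLC30A1 differed by -0.07 and SLC39A10 by -0.08 (adjusted p = 0.659). For SLC39A10 the difference was -0.23 (adjusted p = 0.0636) without the third scramble array. Genes whose OLR1 siRNA arrays all lay above or all below the scramble arrays made up 30.8% of all genes.

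Averaged over both treatments, again a contrast chosen after seeing the data, MT1E rose by 0.37 (adjusted p = 0.000402), MTF1 by 0.32 (adjusted p = 0.000494) and MT1X by 0.33 (adjusted p = 0.00381) with OLR1 siRNA. SLC39A10 fell by 0.25 (adjusted p = 0.0171) and SLC30A1 by 0.19 (adjusted p = 0.0352). Over all genes 12.9% rose and 10.2% fell. Among markers of other cell types, CDH5, CD68 and MITF also rose with OLR1 siRNA. Their differences were 0.65, 0.40 and 0.26 in untreated cells and 0.50, 0.44 and 0.43 with UV-PAPC. Each was the only marker of its list, endothelial, leukocyte or melanocyte, to rise past the threshold. In untreated cells 3 of 6 endothelial, 3 of 7 leukocyte and 2 of 7 melanocyte markers had negative differences. With UV-PAPC these were 4 of 6, 3 of 7 and 6 of 7. In untreated cells the endothelial list had array means of 4.76 to 4.83 with OLR1 siRNA against 4.68 to 4.75 with scramble siRNA, and the leukocyte list 5.13 to 5.15 with OLR1 siRNA against 5.06 to 5.12 with scramble siRNA. With UV-PAPC the endothelial list had 4.71 to 4.74 with OLR1 siRNA against 4.65 to 4.67 with scramble siRNA, and the melanocyte list 4.86 to 4.89 with OLR1 siRNA against 4.99 to 5.02 with scramble siRNA. Their part in the results was not tested.

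The metallothioneins differed among themselves in the siRNA comparison. Within an array, the log2 signal of MT1E minus that of MT2A was -3.13 to -2.95 in the 6 OLR1 siRNA arrays and -3.58 to -3.23 in the 6 scramble arrays, with no overlap. MT1X minus MT2A was -3.88 to -3.61 with OLR1 siRNA and -4.36 to -3.92 with scramble siRNA, also without overlap. MT1G minus MT2A was -2.78 to -2.70 with OLR1 siRNA and -2.87 to -2.62 with scramble siRNA, which overlapped. SLC30A1 minus MT2A was -5.11 to -4.82 with OLR1 siRNA and -4.91 to -4.70 with scramble siRNA, which overlapped too. MT1E and MT1X are the metallothioneins that rose with OLR1 siRNA above, so their lack of overlap restates those calls and adds no support. How often such differences are apart over all genes was not computed. These differences carry the affinities of both probe sets and show unequal change, not which gene stayed level. As a description over the 12 arrays, which include the group differences, Pearson's r was 0.87 between MT1E and MT1X, 0.87 between MT2A and MT1G, 0.81 between MT2A and SLC30A1 and 0.32 between MT1E and MT2A. Over the 21 pairs of metallothioneins r ran from -0.04 to 0.87 with a median of 0.46.

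Other genes of zinc handling were read from lists. Of the other metallothionein genes and pseudogenes listed 7 of 11 were measured, and 0 passed the test in the 4 comparisons of single groups. MT1JP, MT1IP and MT1DP among them are annotated as transcribed pseudogenes. MT1B, MT1JP and MT1IP averaged 5.92, 5.48 and 5.90, close to the array medians. With UV-PAPC, 6 of the 7 had negative differences under scramble siRNA (median -0.19) and 5 of 7 under OLR1 siRNA (median -0.10). At an unadjusted p under 0.05 there were 3 of the 7 with UV-PAPC under scramble siRNA, where 19.5% of all genes were, and 0 under OLR1 siRNA (18.5% of all genes). With OLR1 siRNA there were 0 in untreated cells (22.8% of all genes) and 2 in treated cells (28.1% of all genes). In the average over treatments MT1HL1 fell with OLR1 siRNA by 0.24 (adjusted p = 0.0335). Of the 9 other ZnT genes, SLC30A6, whose product acts in the secretory pathway with SLC30A5, rose with UV-PAPC under OLR1 siRNA by 0.46 (SE 0.08, adjusted p = 0.00267), and its difference under scramble siRNA was 0.25 (adjusted p = 0.0958). No other ZnT gene passed in a comparison of single groups. Over all genes 3.46% rose with UV-PAPC under OLR1 siRNA. Of the 13 other ZIP genes, 0 passed with UV-PAPC under either siRNA in limma, and at an unadjusted p under 0.05 there were 1 of the 13 under scramble siRNA and 2 under OLR1 siRNA, against the 19.5% and 18.5% of all genes given above. SLC39A13 fell with OLR1 siRNA in untreated cells by 0.26 (adjusted p = 0.0345), where 4.42% of all genes fell. SLC39A9 rose with OLR1 siRNA in treated cells by 0.39 (adjusted p = 0.0111), where 7.94% of all genes rose. In the averages, SLC30A6 rose with UV-PAPC by 0.35 and SLC39A6 by 0.18, and SLC39A13 fell by 0.17. With OLR1 siRNA, SLC30A5 rose by 0.16, SLC30A9 by 0.21, SLC39A7 by 0.19 and SLC39A9 by 0.34, while SLC30A2 fell by 0.25 and SLC39A13 by 0.20. The average with UV-PAPC thus held 1 risen and 0 fallen of the 9 ZnT genes. Of the 13 ZIP genes it held 1 risen and 1 fallen, where 5.95% of all genes rose and 8.03% fell. The average with OLR1 siRNA held 2 risen and 1 fallen of the 9 ZnT genes. Of the 13 ZIP genes it held 2 risen and 1 fallen, where 12.9% of all genes rose and 10.2% fell. The medians with UV-PAPC were 0.00 (scramble) and 0.01 (OLR1 siRNA) for the ZnT genes and -0.02 (scramble) and 0.05 (OLR1 siRNA) for the ZIP genes.

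Stress genes known to respond to heavy metals as well as to oxidants and misfolded protein rose with UV-PAPC. Of 12 listed 10 were measured, and 10 of 10 rose with UV-PAPC under each siRNA, where 2.67% of all genes rose under scramble siRNA and 3.46% under OLR1 siRNA. The list was chosen with earlier results of these data known, so this count is a description and not a test. The median difference was 1.77 in scramble cells and 1.95 in OLR1 siRNA cells. HSPA6, an inducible Hsp70, rose by 4.20 in scramble cells and 4.40 in OLR1 siRNA cells. HMOX1, heme oxygenase, rose by 3.00 in scramble cells and 2.94 in OLR1 siRNA cells, and the zinc-finger gene ZFAND2A, known as arsenite-inducible, by 2.88 in scramble cells and 2.69 in OLR1 siRNA cells. GCLM, a subunit of the enzyme that limits glutathione synthesis, rose least in scramble cells, by 0.71, and by 0.95 in OLR1 siRNA cells. In scramble cells the co-chaperone gene DNAJB1 rose by 2.31, the cystine transporter gene SLC7A11 by 2.20, SRXN1 by 1.34, GCLC by 1.15, HSPH1 by 1.12 and TXNRD1 by 0.94. In OLR1 siRNA cells DNAJB1 rose by 2.35, SLC7A11 by 2.58, SRXN1 by 1.56, GCLC by 1.36, HSPH1 by 1.15 and TXNRD1 by 0.95. With OLR1 siRNA, in untreated cells GCLC rose by 0.32 and TXNRD1 by 0.25 while HSPA6 fell by 0.70, DNAJB1 by 0.34 and SLC7A11 by 0.57, and in UV-PAPC cells GCLC rose by 0.54, GCLM by 0.32 and TXNRD1 by 0.26 while HSPA6 fell by 0.50. None of the 7 metallothioneins of the set had a positive difference in either response, though they may share probe signal. The median over all genes was -0.002 under scramble siRNA and -0.013 under OLR1 siRNA, and the share of negative genes was not computed. Of the 7 other metallothionein genes measured, 1 had a positive difference under scramble siRNA and 2 under OLR1 siRNA, MT3 in both.

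**Figure D4:**
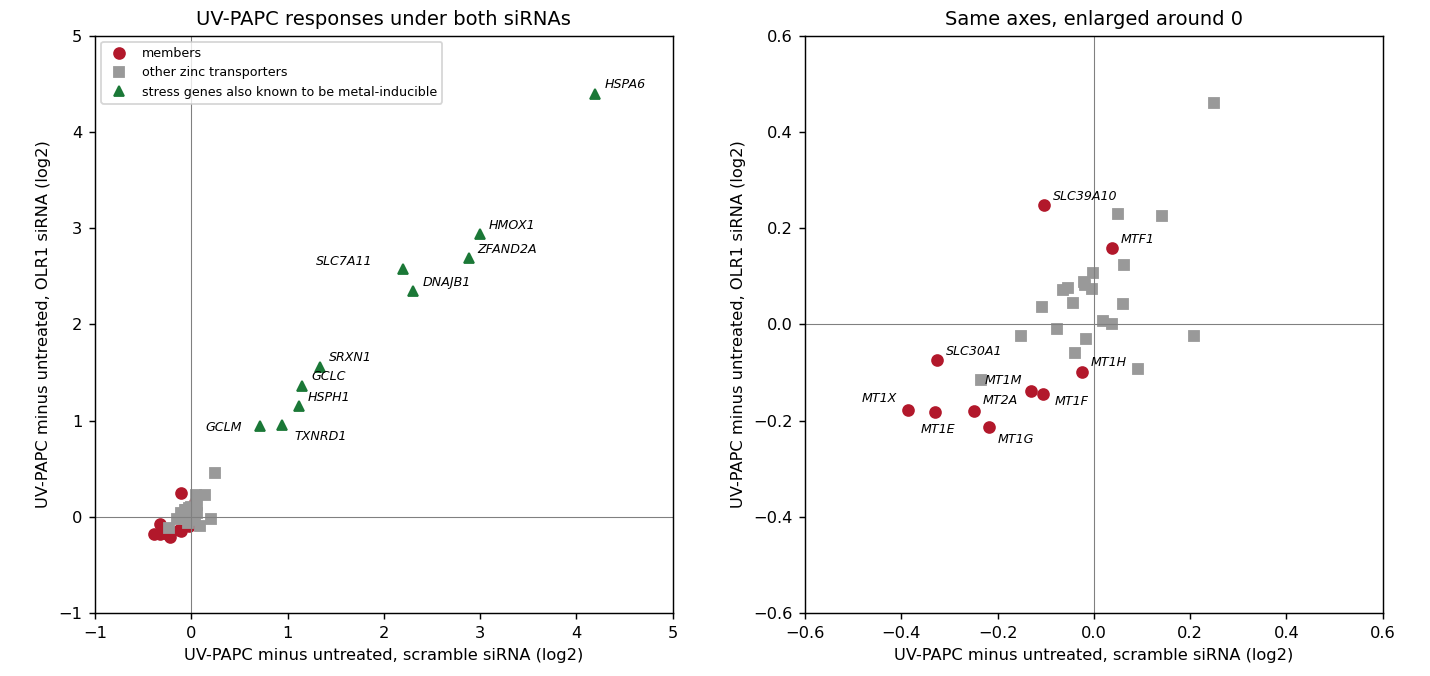
UV-PAPC responses (log2 difference from untreated) under scramble siRNA on the horizontal and OLR1 siRNA on the vertical axis, with the right panel enlarged around 0. Red circles are the metallothionein and zinc genes of the set, grey squares the other zinc transporter genes and green triangles the stress genes. The stress genes lie far to the upper right, up to 4.20 and 4.40 for HSPA6, and the 7 metallothioneins to the lower left of 0.

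Outside these lists, the 5 genes above the median signal whose profile over the 12 arrays was most like the mean centred metallothionein profile were TMEM18, IFT22, CD9, TNFRSF19 and PIM1, with Pearson's r between 0.895 for PIM1 and 0.909 for TMEM18. The members' own r to that profile, to which each contributes, ran from 0.381 for MT1H to 0.867 for MT1X. PIM1, a serine/threonine kinase gene, fell with UV-PAPC by 0.57 in scramble cells and by 0.34 in OLR1 siRNA cells, and CD9, a tetraspanin gene, fell by 0.38 in scramble cells and by 0.30 in OLR1 siRNA cells. TMEM18 fell by 0.34 in scramble cells, and TNFRSF19 by 0.33 in OLR1 siRNA cells. The 5 were picked for this likeness from all genes above the median signal, so their values are a description.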

How the data were processed

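Gene expression of 12 samples was measured on Affymetrix arrays from 100 ng of RNA each. Per the submitters' processing notes, the authors computed the deposited log2 signals of each probe set by RMA, using version 1.3.1.187 of Affymetrix Expression Console, and no further normalization was applied. The sources used here give neither RMA's settings nor the genome build of the array. RMA tends to compress large fold changes, and the number of arrays limits the precision.

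Of 33297 entries 19460 had 1 symbol in the platform annotation, 1754 several and 12083 none, and symbols were checked through Entrez numbers (19429 matched, all with the same symbol). The highest-mean entry stood for a gene, which left 18417 genes. No entry with several symbols named one of the 10 genes. A model of 4 group means over the 12 arrays was fitted in limma (version 3.58.1, under R 4.3.3), which left 8 residual degrees of freedom and added 7.66 from the prior, with two-sided moderated tests and Benjamini-Hochberg adjustment within each comparison at 0.05. There were 5 comparisons, and 2 averaged contrasts were added after seeing the data. The fit was tested on simulated data. The members and gene lists were chosen with earlier results of these data known. All members were named, every gene of the zinc, copper, stress and glucocorticoid lists past the threshold in a comparison of single groups, those of the zinc lists past it in an average, and the 5 most alike genes. List results are counts and medians without a test.

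Promoters came from RefSeq (GRCh38.p14). The alternatives were trended and robust variance, array weights, genes above the median signal, the mean of a gene's entries, all entries, median centring, repeated quantile normalization, only the 6 arrays compared, a block for the replicate number, and 1 array left out at a time. Plots used Python 3.11.15 and matplotlib 3.10.9.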

Additional observations from a re-analysis of the deposited data

How the results depend on the processing

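Alternatives were run for the 10 genes, and none of their differences past the threshold reversed its direction. Of the 10 genes, the 5 calls of the UV-PAPC response under scramble siRNA became 0 when all table entries were tested, 3 after repeated quantile normalization and 3 with the 6 arrays of the comparison alone; leaving out 1 array gave 0 to 4. Under OLR1 siRNA the count of 0 became 2 with trended and robust variance, 1 with array weights, 1 with genes above the median signal and 2 after repeated quantile normalization. Leaving out 1 array gave 0 to 2, with MT1G lower and SLC39A10 higher without the third scramble array with UV-PAPC. The 4 calls of OLR1 siRNA in untreated cells became 1 with all entries, and 1 to 4 with 1 array left out. The 3 calls of OLR1 siRNA with UV-PAPC ran from 2 to 3 with 1 array left out and stayed at 3 otherwise, and the interaction gave 0 throughout. Each average gave 5, with 4 to 6 over its alternatives. The cause of these shifts was not tested. Of the single-gene values 83 lost and 12 gained a call.

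Samples with the same replicate number were not treated as paired in the main fit, and whether they belong together is not stated. Their deviations from the group means correlated between -0.22 and 0.26 over 18 pairs (median 0.03), and 6 exceeded 0.1. Over 36 pairs with other numbers r ran from -0.26 to 0.27 (median -0.01), and 8 exceeded 0.1. For MT2A and MT1G the third array was the lowest of every group, which held for no other member. These values do not settle whether the samples were paired. With the replicate number as a block the count was 4 for UV-PAPC under scramble siRNA, 0 for UV-PAPC under OLR1 siRNA, 4 for OLR1 siRNA in untreated cells, 3 for OLR1 siRNA with UV-PAPC, 0 for the interaction and 5 for each average.

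Limits are the 3 arrays per group, changes under 0.5 on the log2 scale, possible sharing of probe signal within the metallothionein family, which was not measured, the high signal of MT2A and the low signals of MT1H and MT1M, both left out where only genes above the median signal were tested.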

Other observations

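Copper, which metallothioneins also bind, is handled by other proteins of which 15 of 16 listed genes were measured. With UV-PAPC, SOD1, the copper and zinc superoxide dismutase gene, rose by 0.36 under scramble siRNA and by 0.55 under OLR1 siRNA (limma, adjusted p = 0.00249 under scramble and 6.25e-05 under OLR1 siRNA). CCS, the copper chaperone of SOD1, rose by 0.39 under scramble siRNA (adjusted p = 0.00731). STEAP4, a metalloreductase gene, fell by 0.86 under scramble siRNA and by 0.64 under OLR1 siRNA (adjusted p = 2.94e-05 under scramble and 0.000415 under OLR1 siRNA), and SCO2, a copper chaperone of cytochrome c oxidase, fell by 0.26 under scramble siRNA (adjusted p = 0.0466). The counts were 2 risen and 2 fallen under scramble siRNA, where 2.67% of all genes rose and 4.64% fell, and 1 of each under OLR1 siRNA, where 3.46% rose and 3.25% fell, with medians of -0.04 under scramble siRNA and 0.01 under OLR1 siRNA.

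OLR1 siRNA in untreated cells lowered 4 of the 15 copper genes and raised 0, where 4.42% of all genes fell and 5.29% rose. SCO1 fell by 0.60, SCO2 by 0.40, STEAP2 by 0.59 and STEAP3 by 0.53. In UV-PAPC cells, where 4.56% of all genes fell and 7.94% rose, SCO1 fell by 0.45 and STEAP3 by 0.38, while STEAP4 rose by 0.41. In no copper gene did the UV-PAPC responses differ between siRNAs past the threshold, and 3 did so at an unadjusted p under 0.05, against 5.45% of all genes.

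Of 15 genes known to be raised by glucocorticoids, which also raise metallothionein genes, 13 were measured. With UV-PAPC, DUSP1 rose by 0.95 under scramble siRNA and by 1.10 under OLR1 siRNA, and ANGPTL4 rose by 0.71 under scramble siRNA and by 0.54 under OLR1 siRNA. NFKBIA fell by 0.52 under scramble siRNA and by 0.35 under OLR1 siRNA, and ERRFI1 fell by 0.37 under scramble siRNA and by 0.29 under OLR1 siRNA. The counts were 2 risen and 2 fallen under each siRNA. Over all genes 2.67% rose and 4.64% fell under scramble siRNA, and 3.46% rose and 3.25% fell under OLR1 siRNA. The other 9 genes did not pass under either siRNA, and the medians were 0.07 under scramble siRNA and -0.03 under OLR1 siRNA. With OLR1 siRNA, DUSP1 fell by 0.44 in untreated cells, where 4.42% of all genes fell and 5.29% rose. In UV-PAPC cells SGK1 rose by 0.25 and ANGPTL4 fell by 0.39, where 7.94% of all genes rose and 4.56% fell.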
